A study of Homo sapiens with 3 samples.

Results

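The ADAM, ADAMTS, MMP and TIMP genes encode the metalloproteinases that cut cell-surface proteins and extracellular matrix, and the tissue inhibitors that block them. They were measured in A549 cells, an established human lung adenocarcinoma line, after transfection of *miR-139-5p*, the guide strand of its precursor, or *miR-139-3p*, the passenger strand. Members were the protein-coding genes named ADAM, ADAMTS or MMP with a number, and TIMP1 to TIMP4, found through the RefSeq accession of each probe. This gave 64 genes of the 18216 protein-coding genes on the arrays: 19 *ADAM*, 19 *ADAMTS*, 22 *MMP* and 4 *TIMP* genes, carried by 90 probes. Of the 65 RefSeq genes with such a name, *ADAM28* was matched by no probe and was not analysed here.

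The study hybridised total RNA to 3 Agilent arrays of 1 colour. The mock cells received transfection reagent only and carried no small RNA, and the other groups received the *miR-139-5p* or the *miR-139-3p* precursor with the same lipid reagent, both at the same single concentration per the methods. Each group had 1 array, so no spread between cultures was measured and no test was possible. The mock and *miR-139-5p* arrays shared slide 1, while the *miR-139-3p* array lay on slide 2, so that slide and transfection cannot be told apart for *miR-139-3p*.

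The mature strands come from opposite arms of the *MIR139* hairpin on the minus strand of chromosome 11, and differ in the seed (bases 2 to 8), by which a miRNA recognises its mRNAs. They are shown here, 5′ to 3′ and with the seed in capitals, because they are the mature products of the precursors added to the cells. The sequences are those of RefSeq on GRCh38.p14, where *miR-139-5p* lies at chr11:72615102-72615124 and *miR-139-3p* at chr11:72615066-72615088.
miR-139-5p: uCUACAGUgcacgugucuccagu
miR-139-3p: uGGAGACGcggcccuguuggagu

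ADAM proteins are mostly membrane-anchored and release the outer part of growth factors, receptors and adhesion molecules, a step called shedding. ADAMTS proteases are secreted, bind the matrix and cut proteoglycans, procollagens and blood proteins. MMPs degrade collagens, laminins and many other matrix and surface proteins, and TIMPs close the catalytic site of MMPs and of some ADAM and ADAMTS proteases. In lung, these genes are known for their part in matrix turnover, emphysema and tumour invasion.

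The arrays differed little in depth. Between 48.1% and 53.1% of the 60901 spots were well above background, and the 75th percentile of the signal, to which each array was scaled, ran from 81.0 to 93.6. Median local background was 24 in mock, 23 after *miR-139-5p*, and 16 after *miR-139-3p*. Among probes printed on 10 spots, the median SD between spots was 0.21 to 0.23 on the log2 scale for signals under 20 and 0.046 to 0.053 for signals over 200. This is technical spread within an array. All 4 epithelial markers, *KRT8*, *KRT18*, *EPCAM* and *CDH1*, were well above background on the 3 arrays, while of 5 fibroblast genes *COL1A2*, *COL3A1*, *DCN* and *LUM* were on none and *PDGFRB* was, dimly, on all 3. The leukocyte genes *PTPRC*, *CD3D* and *CD14* and the endothelial gene *CDH5* were also well above background on the 3 arrays. *CDKN2A*, which A549 is known to have lost, had 1 probe at 307 in mock and 339 after *miR-139-5p*, well above background and against that expectation, no usable value after *miR-139-3p*, and another probe below that mark on all arrays. Whether the first probe reads another transcript was not tested. *AKR1B10* and *AKR1C1*, known to be high in A549, read at least 13834 on every array.

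In these cells 32 of the 64 members had a probe well above background on at least 1 array, or 50%, against 76.4% of all 18209 protein-coding genes with a usable probe. By family these were 12 of 19 *ADAM*, 7 of 19 *ADAMTS*, 10 of 22 *MMP* and 3 of 4 *TIMP* genes, and 28 members were well above background on all 3 arrays. The *ADAM* genes without such a probe were *ADAM2*, *ADAM7*, *ADAM18*, *ADAM21*, *ADAM29* and *ADAM30*, which are known from testis or epididymis, and *ADAM22*, known from brain. Not well above background among *ADAMTS* genes were the procollagen proteinases *ADAMTS2*, *ADAMTS3* and *ADAMTS14*, the aggrecanases *ADAMTS1*, *ADAMTS4*, *ADAMTS5*, *ADAMTS15* and *ADAMTS20*, and *ADAMTS6*, *ADAMTS12*, *ADAMTS17* and *ADAMTS18*. The *MMP* genes in this class were the collagenases *MMP1*, *MMP8* and *MMP13*, the gelatinase *MMP2*, the stromelysins *MMP3*, *MMP10* and *MMP11*, and *MMP16*, *MMP20*, *MMP21*, *MMP26* and *MMP27*. *TIMP3*, the inhibitor that also acts on ADAM17 and several ADAMTS proteases, was not well above background either. These genes had no level that could be compared between arrays.

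On chromosome 11, 9 *MMP* genes are neighbours: *MMP7*, *MMP20*, *MMP27*, *MMP8*, *MMP10*, *MMP1*, *MMP3*, *MMP12* and *MMP13*. Of these, *MMP7* was well above background on the 3 arrays, *MMP12* was well above it, at low signals, on the mock array and that of *miR-139-5p*, and the other 7 were on none. *MMP1*, the interstitial collagenase, was printed on 10 spots, 1 of them left out as an outlier in mock, and no spot used was well above background on any array, with median signals of 2.0 in mock, 1.88 after *miR-139-5p* and 1.16 after *miR-139-3p*.

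AP-1, the FOS and JUN dimer, is a known activator of *MMP* promoters and binds the letters TGAGTCA or, on the opposite strand, TGACTCA. Of the 38 members with a RefSeq promoter window (250 bases before to 50 after the start of the gene), 1 held these letters on either strand, against 3.66% of 15843 protein-coding promoters. It was *MMP7*, with the first letter 67 bases before the start. The stretch around it is shown on the minus strand, at chr11:102530782-102530841 of GRCh38.p14, with the motif in capitals.
MMP7: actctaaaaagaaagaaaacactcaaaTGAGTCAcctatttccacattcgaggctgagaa
A match of letters is no evidence of binding, and windows for the other 26 members were not analysed here.

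**Figure D1:**
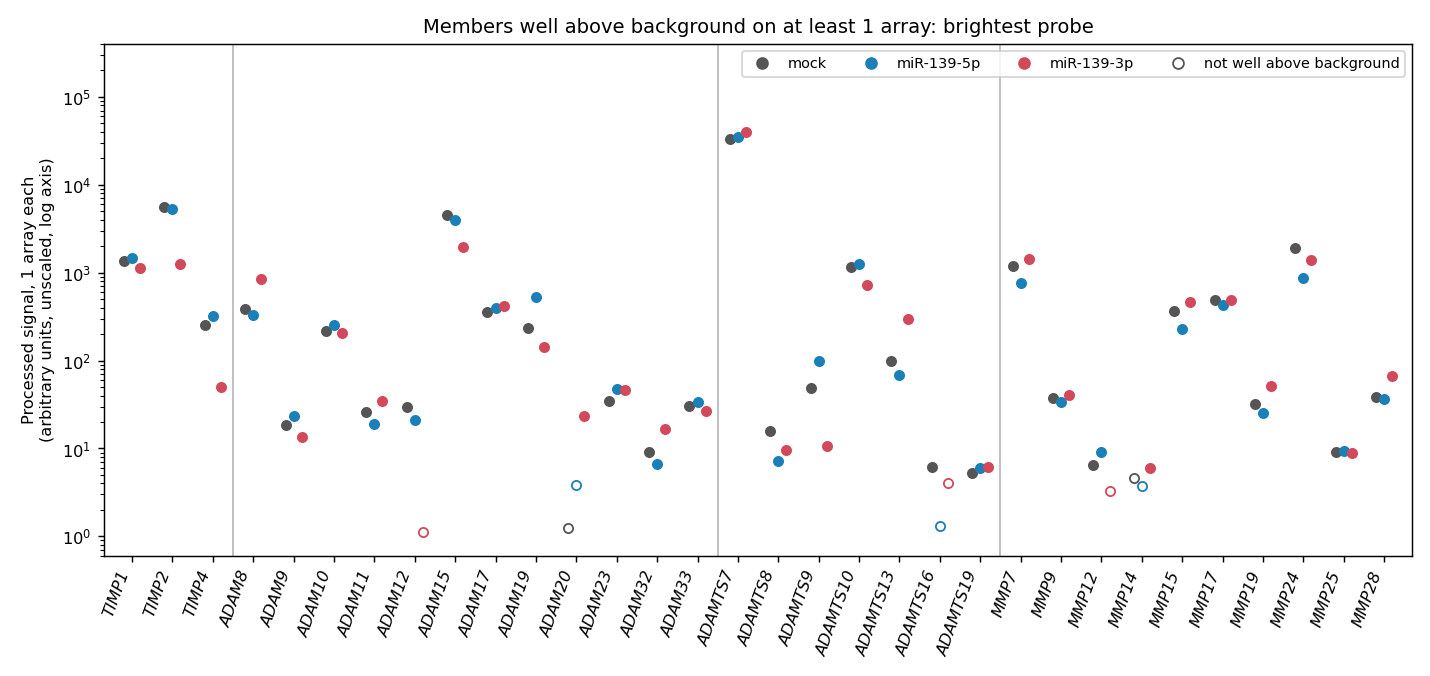
Processed signal of the brightest probe of each of the 32 members well above background on at least 1 array (log axis, arbitrary units, before scaling), with 1 point per array for mock (grey), *miR-139-5p* (blue) and *miR-139-3p* (red). Open points were not well above background. *TIMP2* and *TIMP4* have their lowest point, and *ADAM8* and *ADAMTS13* their highest, on the *miR-139-3p* array.

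The first comparison asks which of these genes differed after *miR-139-3p* was added. Values are differences in scaled log2 signal. A gene was called lower or higher where it differed by over 0.5, and a probe well above background on only 1 array gives a bound. Of 32 members with a value against mock, 12 were higher, 5 lower and 15 within the threshold. Of all 13551 protein-coding genes with a value, 23.0% were called higher and 30.5% lower. The median of the 28 members measured on both arrays was 0.29, against -0.15 over all protein-coding genes. The split moved with the scaling: 70.6% of called members were higher here, 78.9% when the percentile was taken over probes detected on all arrays, and 50% without scaling or with spike-in scaling. The members lower were *TIMP2*, *TIMP4*, *ADAM15*, *ADAM19* and *ADAMTS9*. Those higher were *ADAM8*, *ADAM11*, *ADAM20*, *ADAM23*, *ADAM32*, *ADAM33*, *ADAMTS7*, *ADAMTS13*, *MMP14*, *MMP15*, *MMP19* and *MMP28*.

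Dim genes as a whole lay higher on the *miR-139-3p* array. Among measured protein-coding genes with a mean signal under 50, 35.4% were higher and 23.3% lower than in mock, while over 500 these shares were 10.2% and 35.2%. Of the members higher, *ADAM11*, *ADAM23*, *ADAM32*, *ADAM33* and *MMP19* had mean signals under 50, and *ADAM20* and *MMP14* had bounds. Markers of other cell types also read higher there at low signal: the leukocyte genes *PTPRC* (10.3 in mock, 20.1 after *miR-139-3p*) and *CD3D* (15.9 and 26.7) and the endothelial genes *CDH5* (14.5 and 25.1) and *VWF* (6.28 and 11.2). The fibroblast gene *PDGFRB* went from 6.91 to 11.5. *PECAM1* was not well above background on any array, and *CD14* went from 292 to 64.0. The part of these differences in the member values was not tested. With the trend of the difference on signal removed, an alternative added after the values were seen, 13 members were higher and 7 lower. Of all protein-coding genes, 25.5% were then higher and 24.4% lower.

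The second comparison asks the same of *miR-139-5p*. Against mock, 4 of 30 members with a value were lower and 4 higher, where 12.2% and 10.6% of all 13193 protein-coding genes with a value were called. The median of the 29 measured members was 0.01, against 0.00 over all protein-coding genes. The members lower were *ADAMTS8*, *MMP7*, *MMP15* and *MMP24*, and those higher were *ADAM19*, *ADAM23*, *ADAMTS9* and *MMP12*. Of called members 50% were higher, which became 25% without scaling and 75% with spike-in scaling. This comparison and the first share the mock array.

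The third comparison sets the strands against each other, both arrays having received a precursor. Of 31 members with a value, 14 were higher and 8 lower on the *miR-139-3p* array than on that of *miR-139-5p*, against 23.0% and 30.6% of all 13449 protein-coding genes with a value. The median of the 28 measured members was 0.37, against -0.16 over all protein-coding genes. Of called members 63.6% were higher, 73.9% with the percentile over the probes detected on every array, 55% with spike-in scaling or the brightest probe and 52.6% with the lowest probe. Of all protein-coding genes, 30.3% were higher and 22.6% lower with that percentile, and 15.1% and 46.2% with spike-in scaling. The brightest probe gave 23.1% and 31.6%, and the lowest probe 21.2% and 34.5%. Higher were *ADAM8*, *ADAM11*, *ADAM20*, *ADAM32*, *ADAM33*, *ADAMTS7*, *ADAMTS8*, *ADAMTS13*, *MMP7*, *MMP15*, *MMP19*, *MMP24*, *MMP25* and *MMP28*, and lower were *ADAM9*, *ADAM15*, *ADAM19*, *ADAMTS9*, *ADAMTS10*, *MMP12*, *TIMP2* and *TIMP4*. It shares an array with each of the other comparisons.

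**Figure D2:**
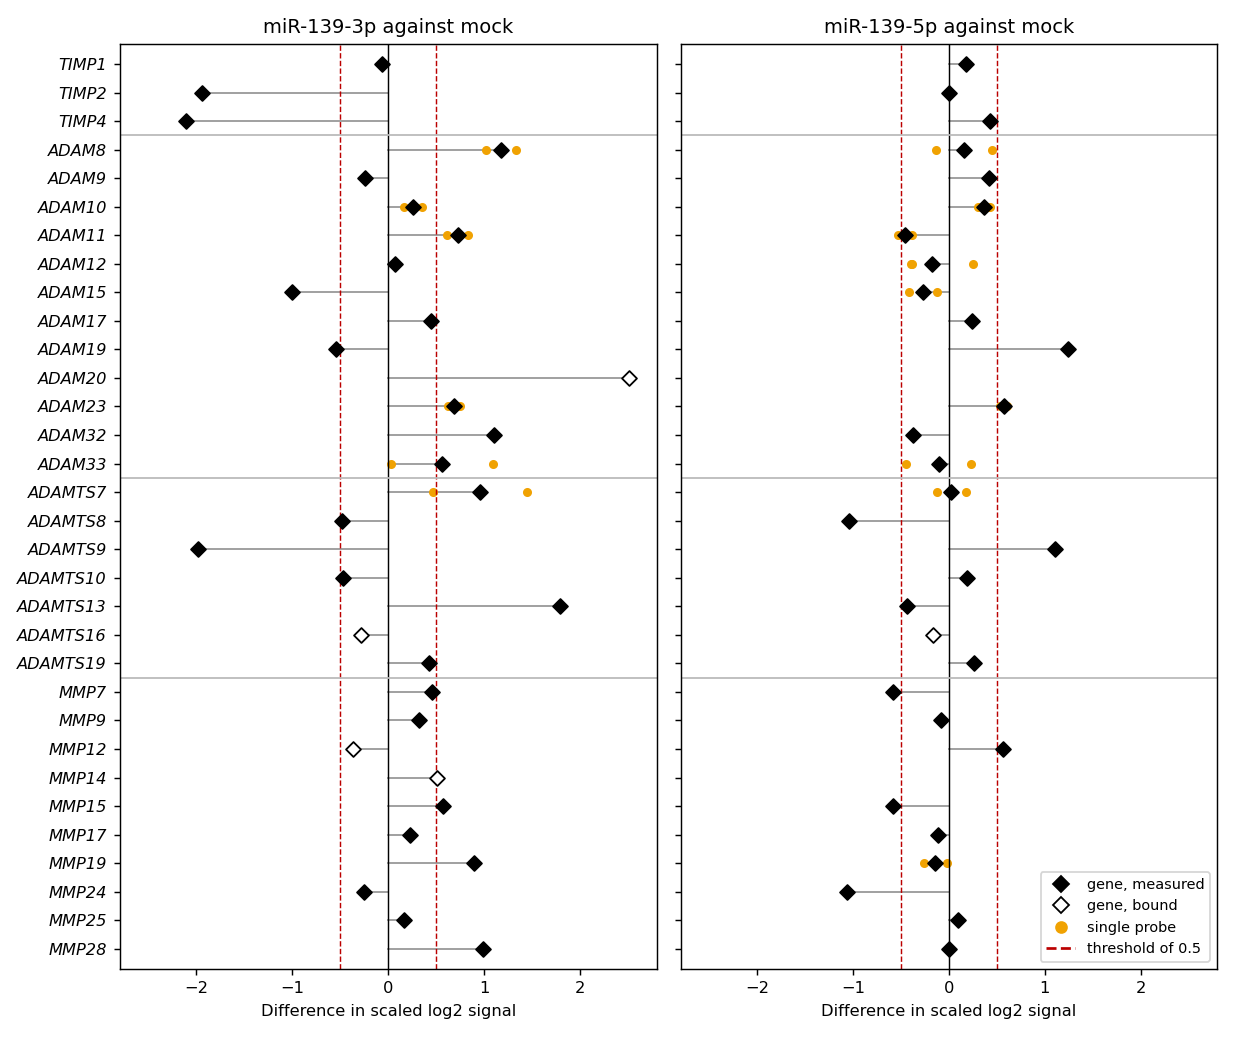
Difference in scaled log2 signal of each member, against mock, with *miR-139-3p* on the left panel and *miR-139-5p* on the right one. Diamonds are genes (open for bounds), orange points single probes measured on both arrays, and dashed lines the threshold of 0.5; both panels share the mock array. *TIMP2*, *TIMP4*, *ADAM15* and *ADAMTS9* have values of -0.998 or lower on the left only, and *ADAM19* and *ADAMTS9* lie on opposite sides of 0 in the panels, except that *ADAM19* stood at 0.14 on the left without the filter on dim probes.

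With *miR-139-3p*, 2 inhibitors were lower and 1 was within the threshold. *TIMP2*, which both inhibits MMPs and helps membrane-type MMPs activate MMP2, had a signal of 5630 in mock, 5368 after *miR-139-5p* and 1264 after *miR-139-3p*. Only the *miR-139-3p* array stood apart, at -1.95 on the log2 scale or 3.85-fold lower than mock, and *miR-139-5p* differed from mock by 0.01. *TIMP4*, an inhibitor best known from heart and vessel wall, read 252, 323 and 50.6 in the same order, 4.31-fold lower than mock after *miR-139-3p* and within the threshold, at 0.43, after *miR-139-5p*. *TIMP1*, a secreted inhibitor of most MMPs, read 1370, 1468 and 1134 and stayed within the threshold in every comparison, at -0.06 after *miR-139-3p*, with *miR-139-5p* at 0.17. Thus 2 of the 3 inhibitors above background were lower with *miR-139-3p* and none with *miR-139-5p*, beside 30.5% and 12.2% of all protein-coding genes. Over the alternatives the *miR-139-3p* value ranged from -2.15 to -1.68 for *TIMP2* and from -2.32 to -1.40 for *TIMP4*.

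*ADAM10* and *ADAM17*, the main sheddases of Notch receptors and EGF-family ligands, were within the threshold in every comparison. *ADAM17* read 357 in mock, 400 after *miR-139-5p* and 420 after *miR-139-3p*, with differences from mock of 0.24 and 0.45, the latter past the threshold in 4 of 12 alternatives and up to 0.73. The brighter probe of *ADAM10* read 215, 251 and 209, and the gene differed from mock by 0.36 and 0.26. *ADAM9*, a sheddase also named meltrin gamma, was dim, at 18.5, 23.6 and 13.5. It was within the threshold against mock, and lower, at -0.67, with *miR-139-3p* than with *miR-139-5p*, which became -0.16 after normexp.

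*ADAM15* encodes a protease with an integrin-binding disintegrin domain. Its brighter probe read 4516, 3927 and 1957 in the order mock, *miR-139-5p*, *miR-139-3p*, which placed *miR-139-3p* at -0.998 and left *miR-139-5p* at -0.13. A second probe at 142 and 101 was marked an outlier on the *miR-139-3p* array and left out there; with it kept, at 39.6, it gave -1.63. Both probes thus read lowest with *miR-139-3p*. *ADAM15* overlaps the readthrough gene *ADAM15-EFNA4*, whose transcripts may be read by the same probes.

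*ADAM19*, meltrin beta, which cuts neuregulin, differed in both directions. It read 237 in mock, 530 after *miR-139-5p* and 141 after *miR-139-3p*, 2.36-fold higher than mock with *miR-139-5p*, and *miR-139-3p* stood at -0.54. The strands differed by -1.78. The *miR-139-3p* difference from mock lay close to the threshold, past it in 6 of 12 alternatives, and turned to 0.14 when a second, dim probe was averaged in.

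*ADAM8*, a sheddase of leukocytes and of many carcinomas, has 3 probes, described singly. The brightest read 386 in mock, 333 after *miR-139-5p* and 840 after *miR-139-3p*, which is 2.51-fold higher than mock. The second read 15.4, 20.05 and 27.1, or 2.03-fold higher with *miR-139-3p*. On both, the *miR-139-3p* array was highest, but they differed in sign for *miR-139-5p*, at -0.14 and 0.45. The dimmest, at 5.32, was well above background in mock only and gave a bound of -0.09 for *miR-139-3p*.

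*ADAM12*, known from placenta, muscle and tumours, has transcripts for a long membrane-bound and a short secreted protein, and its 4 probes did not move together. Of the 2 probes listed for the long transcript, the brighter read 29.3 in mock, 21.2 after *miR-139-5p* and 1.12, not well above background, after *miR-139-3p*. This makes it at least 5.88-fold lower than mock and at least 4.47-fold lower than *miR-139-5p*. The other read 9.20, 6.67 and 4.04, again not well above background with *miR-139-3p* and at least 1.84-fold lower than mock. Both had their lowest signal there. Of the 2 probes listed for the short transcript, 1 was not well above background on any array and the other read 7.28, 8.21 and 6.64, a difference from mock of 0.08 after *miR-139-3p*, against 0.25 for *miR-139-5p*. The gene value of 0.08 rests on that dim probe alone.

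*ADAM33*, known as an asthma susceptibility gene, also had probes that disagreed. One read 30.1 in mock, 33.6 after *miR-139-5p* and 26.6 after *miR-139-3p*, a difference of 0.03 with *miR-139-3p*. Another, listed for a different transcript, read 15.2, 10.5 and 27.9, a difference of 1.09. Their mean of 0.56 passed the threshold in 4 of 12 alternatives.

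The other *ADAM* genes above background were dim. *ADAM11*, which like *ADAM23* encodes a protein without protease activity, read 26.01, 18.9 and 34.5 on its brighter probe, and its 2 probes averaged 0.72 after *miR-139-3p*, against -0.46 for *miR-139-5p*, and the former became 0.30 after normexp. *ADAM23*, an adhesion protein of neurons, read 34.9, 48.0 and 46.4 and was the member higher in both comparisons with mock, at 0.68 and 0.57. It passed the threshold in 7 of 12 alternatives for *miR-139-3p* and fell within it after normexp background correction, at 0.22 and 0.14. *ADAM32*, of testis, read 9.07, 6.65 and 16.9, a difference of 1.1 with *miR-139-3p* that became 0.30 after normexp. *ADAM20*, also of testis, was not well above background in mock or after *miR-139-5p* and read 23.7 after *miR-139-3p*, at least 5.69-fold higher than mock, or 2.51 on the log2 scale, which became 0.59 after normexp.

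**Figure D3:**
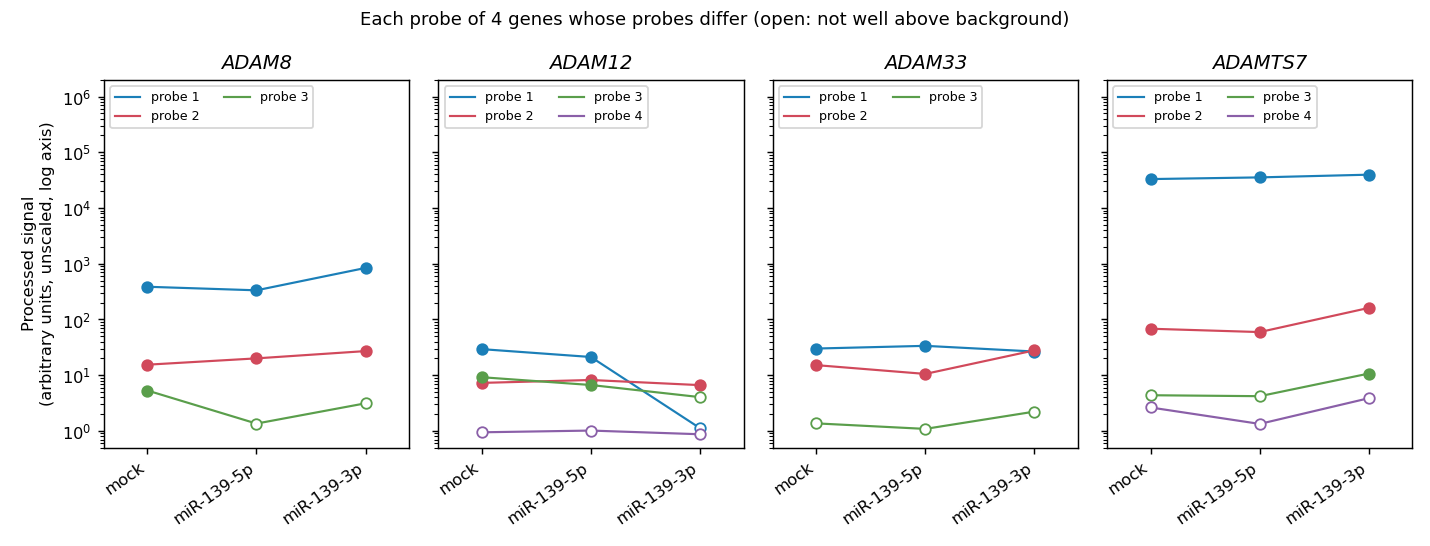
Processed signal of every probe of *ADAM8*, *ADAM12*, *ADAM33* and *ADAMTS7* on each array (log axis, arbitrary units, before scaling; probes numbered from the brightest; open points not well above background). The brightest *ADAM12* probe goes from 29.3 in mock to 1.12 with *miR-139-3p*, while the probe of 7.28 in mock reads 6.64.

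Among ADAMTS proteases, *ADAMTS9* and *ADAMTS13* differed most from mock with *miR-139-3p*. *ADAMTS9*, which cuts versican and aggrecan, read 48.4 in mock, 99.0 after *miR-139-5p* and 10.6 after *miR-139-3p*. It was 3.96-fold lower than mock with *miR-139-3p* and 2.15-fold higher with *miR-139-5p*, and the strands differed by -3.09. With normexp these values shrank to -0.52, 0.49 and -1.02. *ADAMTS13*, the protease of von Willebrand factor, read 98.2, 68.9 and 295, which is 3.47-fold higher than mock with *miR-139-3p* and within the threshold, at -0.44, with *miR-139-5p*. A second, dim probe was well above background with *miR-139-3p* only, at 7.11, a bound of 0.77.

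*ADAMTS7*, a protease of cartilage oligomeric matrix protein and thrombospondins, had a probe at 33014 in mock, 35396 after *miR-139-5p* and 39598 after *miR-139-3p*. This probe stayed within the threshold, at 0.47 with *miR-139-3p*. A second probe of the same transcript read 68.2, 59.4 and 161, a difference of 1.45, and another was well above background with *miR-139-3p* only, at 10.7. Of 2 probes of the pseudogene *ADAMTS7P1*, 1 read 23.3, 16.7 and 99.7 and the other was not well above background on any array. Whether probes of the gene and its pseudogene read both transcripts was not tested. The gene value of 0.96 is the mean of probes that differ by 0.98.

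*ADAMTS10*, which acts on fibrillin microfibrils, read 1156, 1252 and 723, within the threshold against mock and lower, at -0.66, with *miR-139-3p* than with *miR-139-5p*, a call kept in 8 of 12 alternatives. *ADAMTS8*, a weak aggrecanase of lung, read 15.8 in mock, 7.25 after *miR-139-5p* and 9.74 after *miR-139-3p*, lower than mock by 1.05 with *miR-139-5p* on the log2 scale but at -0.10 after normexp. Its difference between the strands, 0.56, kept its call in 6 of 12 alternatives and was 0.01 in the deposited log2 values. *ADAMTS19* was dim, at 5.26, 5.98 and 6.13, and within the threshold in every comparison. *ADAMTS16*, at 6.08, was well above background in mock only.

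Of the secreted MMPs, *MMP7*, *MMP9*, *MMP19* and *MMP28* were well above background on the 3 arrays. *MMP7*, matrilysin, is made by epithelium in lung. It read 1198 in mock, 760 after *miR-139-5p* and 1421 after *miR-139-3p*. It was 1.5-fold lower than mock with *miR-139-5p*, within the threshold at 0.45 with *miR-139-3p* (past it in 4 of 12 alternatives), and 2.05-fold higher with *miR-139-3p* than with *miR-139-5p*. *MMP28*, epilysin, a protease of resting epithelia, read 39.0, 37.0 and 67.0, and was 1.98-fold higher than mock with *miR-139-3p* and level with mock, at -0.00, with *miR-139-5p*. *MMP19* read 32.1, 25.4 and 51.9 on its brighter probe, and its 2 probes differed from mock by 0.90 and 0.89 with *miR-139-3p*, and their mean became 0.37 after normexp. *MMP9*, the gelatinase of neutrophils and invading cells, read 37.3, 33.5 and 40.4 and stayed within the threshold in every comparison. *MMP12*, macrophage elastase, read 6.43, 9.03 and 3.29, the last not well above background, a bound of -0.37, and was higher by 0.56 with *miR-139-5p* but by 0.03 after normexp.

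Of the 4 membrane-type MMPs that could be compared between *miR-139-5p* and mock, *MMP15* and *MMP24* were lower and *MMP17* and *MMP25* within the threshold, beside 12.2% of all protein-coding genes lower. *MMP24* read 1919 in mock, 871 after *miR-139-5p* and 1394 after *miR-139-3p*, 2.09-fold lower than mock with *miR-139-5p* and within the threshold, at -0.25, with *miR-139-3p*; it overlaps the genes *MMP24OS* and *MMP24-AS1-EDEM2*. *MMP15* read 362, 229 and 467, at -0.59 after *miR-139-5p*, against 0.57 for *miR-139-3p*, so that it lay on opposite sides of mock. Both calls of *MMP15* were within 0.1 of the threshold and held in 10 and 9 of 12 alternatives, and the strands differed by 1.16. *MMP17*, attached by a lipid anchor, read 487, 427 and 494 and stayed within the threshold in every comparison. Between the strands its value of 0.34 stayed within the threshold in 8 of 12 alternatives and reached 0.65. With *miR-139-3p* against mock it reached 0.53. *MMP25*, also lipid-anchored, read 9.23, 9.37 and 8.98 on one probe, within the threshold against mock. Its other probe read 4.92, not well above background, in mock, 5.64 after *miR-139-5p* and 10.3 after *miR-139-3p*, at least 2.42-fold higher than mock with the latter, so that the probes differ. They averaged 0.54 between the strands but -0.01 in the deposited log2 values. *MMP14*, the main activator of MMP2, was well above background with *miR-139-3p* only, at 5.95, a bound of 0.51 that passed the threshold in 5 of 9 alternatives and became 0.20 after normexp.

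Proteins that activate or carry these enzymes were listed as 14 genes. Of the 13 with a value, 6 were called down and 2 up with *miR-139-3p*, with a median of -0.28, while *miR-139-5p* gave 1 of each and a median of 0.06. Over all protein-coding genes *miR-139-3p* had 30.5% lower, 23.0% higher and a median of -0.15, and *miR-139-5p* had 12.2% lower, 10.6% higher and a median of 0.00. *RHBDF2*, which carries ADAM17 to the surface, was higher by 1.52 with *miR-139-3p*, at 1505 in mock and 3731, and *FRMD8*, which stabilises that complex, was at -1.09. *BSG*, the inducer of MMPs named basigin, was at -1.08. *PCSK5*, a convertase that removes inhibitory propeptides, read 159 in mock, 305 after *miR-139-5p* and 58.9 after *miR-139-3p*, at 1.00 and -1.22. *FURIN*, the main convertase, stayed within the threshold in every comparison.

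Among 5 other inhibitors and related proteins with a value, 2 were lower, and none higher, after *miR-139-3p*, while *miR-139-5p* left none lower and put 2 higher, with medians of 0.04 and 0.08, beside the 30.5% lower with *miR-139-3p* and 10.6% higher with *miR-139-5p* among all genes. *SPOCK1*, a testican, read 106, 173 and 18.7 and was at -2.29 with *miR-139-3p*. *RECK*, a membrane-anchored inhibitor of MMPs and of ADAM10, was higher by 1.08 with *miR-139-5p*, while *miR-139-3p* left it at 0.04. Both values are means of 2 probes. The brighter read 63.1 in mock, 181 after *miR-139-5p* and 85.1 after *miR-139-3p*, so that the probes differ for *miR-139-3p*. Of 6 ADAMTS-like genes with a value, whose proteins lack the protease domain, 3 lay higher and 1 lower after *miR-139-3p*, with a median of 1.17 over those measured and 23.0% higher and 30.5% lower among all genes, and *miR-139-5p* had 1 higher and a median of -0.07. *ADAMTSL5* read 2640, 2820 and 6301, a difference of 1.38 with *miR-139-3p*. *PAPLN*, papilin, was higher on both transfected arrays, by 2.12 for *miR-139-3p*, against 1.26 for *miR-139-5p*, and *ADAMTSL2* by 1.17 with *miR-139-3p*. The median of 1.17 is this value of *ADAMTSL2*. It rests on 1 dim probe of 3, at 5.91 in mock and 11.5 after *miR-139-3p*, and the others were not well above background on any array.

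Substrates were listed in 2 groups. Of 20 shed membrane proteins with a value, 8 lay lower and 7 higher after *miR-139-3p*, and of 19 with a value 1 lay lower and 5 higher after *miR-139-5p*, with medians of -0.15 and 0.01. The shares among all genes were 30.5% and 23.0% for the former and 12.2% and 10.6% for the latter, and the median of -0.15 is also that of all protein-coding genes. With *miR-139-3p* the syndecans *SDC1*, from 3599 in mock to 462, and *SDC4* were at -2.75 and -1.28, while *L1CAM* and the EGF receptor ligand *AREG* were at 1.30 and 1.18. *L1CAM* was dim, at 6.11 in mock and 13.0 after *miR-139-3p* on the 1 probe of 2 measured. The brighter probe of *AREG* read 995 and 1854. With *miR-139-5p*, *IL6R* was at 1.14, *EREG* at 1.08 and *AREG* at 1.00. Of 13 matrix substrates with a value, 6 lay lower and 3 higher after *miR-139-3p*, with a median of -0.43 and 30.5% and 23.0% among all genes, and none lay lower and 8 higher after *miR-139-5p*, with a median of 0.58, where 10.6% of all protein-coding genes were higher. Against *miR-139-5p*, 9 of 14 were lower with *miR-139-3p*, and 1 was higher, where 30.6% and 23.0% of all genes were.

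The matrix genes of both comparisons are given side by side, since they share the mock array. *IGFBP3*, a growth factor carrier cut by several MMPs, read 1028 in mock, 1235 after *miR-139-5p* and 133 after *miR-139-3p*. *COL5A1*, a fibrillar collagen, read 701, 1491 and 264 on its brighter probe. *VCAN*, versican, the substrate of ADAMTS9, read 113, 177 and 42.1. All 3 were lowest on the *miR-139-3p* array, at -2.74, -1.09 and -1.22 against mock. *FN1*, fibronectin, was dim in mock at 24.8 and not well above background with *miR-139-3p*, a bound of -2.31. With *miR-139-5p*, *COL1A1* was at 1.41 and *COL4A1*, a basement membrane collagen, at 1.19. *COL1A1* read 40.1, 101 and 22.7, while *COL1A2*, the other chain of collagen I, was not well above background on any array.

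**Figure D4:**
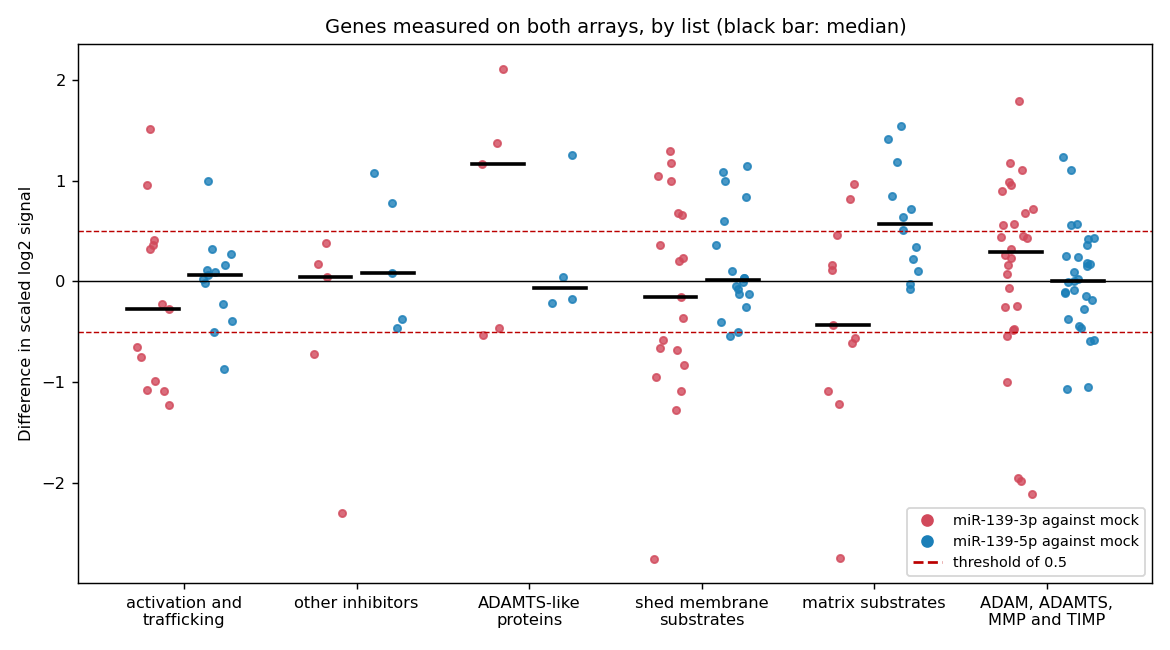
Difference in scaled log2 signal from mock for genes measured on both arrays, by list, with *miR-139-3p* in red, *miR-139-5p* in blue, black bars at the medians and dashed lines at the threshold of 0.5. Matrix substrates have a median of -0.43 for the *miR-139-3p* array, against 0.58 for *miR-139-5p*; both colours share the mock array, and points are spread sideways only for legibility.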

How the data were processed

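Total RNA of A549 cells was labelled with Cy3 and hybridised to 3 Agilent arrays. The authors deposited the processed intensity of every spot, read by Feature Extraction 12.1.1.1 with the background subtracted and no scaling between arrays, and a table of log2 values per probe. The deposited log2 values matched quantile-normalized log2 signals (median absolute difference at most 0.006, column medians 2.21) and served as an alternative. Signals were divided by the 75th percentile of their array, controls left out, and put on the log2 scale. Spots marked as outliers were left out, spots of a probe averaged, and probes taken as well above background where at least 50% of their spots were. The value of a gene is the mean over probes well above background on both arrays. Failing that, it is a bound from the brightest probe that reached this mark on 1 array, the dim side being set to the higher of its own signal and the lowest signal well above background. Depth is given by the signal over background. Probes were named through RefSeq of GRCh38.p14 (24751 of 25277 mRNA accessions matched); as they were designed on another build, coordinates are given only for the miRNA and promoter sequences, on the build of their own RefSeq tables. Members above background could be named, and listed genes where past 1.0 on the log2 scale, at most 4 per list and comparison; *FURIN* and *COL1A2* were added after their values were seen. Some genes of the lists are not reported here. The members and lists were chosen with earlier results of these data known. Each condition had 1 array, so no test was made. Steps were tested on simulated data. Python 3.11.15, limma 3.58.1 and statsmodels 0.14.6 were used.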

Additional observations from a re-analysis of the deposited data

How the results depend on the processing

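No paired analysis was possible because each condition had 1 array. Single members were recomputed under 12 alternatives at the threshold of 0.5, 1 of them (removal of the trend with signal) added after the values were seen, and 22 of 47 called values of single members kept their side of the threshold in every alternative that gave a value, *TIMP2*, *TIMP4*, *ADAM15*, *ADAMTS9*, *ADAMTS13* and *MMP28* with *miR-139-3p* among them, and also *ADAM19* and *MMP24* with *miR-139-5p*. Of 46 values within the threshold, 23 passed it under at least 1 alternative. Of 1101 single-member values under an alternative, 63 had the other sign than the value given, 5 of them for a value past the threshold. *ADAM8* with *miR-139-3p* became -0.091 with the lowest probe, *ADAM19* 0.14 without the filter on dim probes, *ADAM33* between the strands -0.20 with the brightest or the lowest probe, and *MMP25* -0.01 in the deposited values. Members lower with *miR-139-3p*, 5 against mock, became 8 with quantile normalization, no scaling, spike-in scaling or the deposited values. The share lower among all protein-coding genes, 30.5% here, became 31.5%, 41.0%, 40.2% and 32.2% in the same order. With normexp, members higher became 5 for *miR-139-3p*, 1 for *miR-139-5p*, both against mock, and 8 between the strands, and members lower with *miR-139-5p* became 2. Of all protein-coding genes, normexp put 8.8%, 3.6% and 9.4% higher in these comparisons, and 4.6% lower with *miR-139-5p*. With *miR-139-5p*, spike-in scaling gave 2 lower and no scaling 2 higher, beside 8.1% and 8.0% of all protein-coding genes. Without the filter on dim probes the counts lower and higher were 9 and 19 for *miR-139-3p*, 11 and 9 for the *miR-139-5p* array and 13 and 23 between the strands. The shares over all protein-coding genes were then 25.0% and 23.2%, 12.2% and 11.7%, and 25.4% and 22.5%. With a threshold of 1.0 the member counts were 3 and 4, 2 and 2, and 4 and 8. The median of all protein-coding genes with *miR-139-3p* was -0.15, and moved to 0.02 with the percentile over detected probes and to -0.36 without scaling. Over all protein-coding genes, probes of one gene had a median SD of 0.27 for *miR-139-3p*, 0.15 for *miR-139-5p* and 0.25 between the strands. For members with several measured probes (7, 9 and 8 genes) it was 0.15, 0.20 and 0.45. Signal over background limits values that rest on a probe under a signal of 20 on an array compared, among them those of *ADAM9*, *ADAM12*, *ADAM32*, *ADAMTS8* and *MMP12*.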

Other observations

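Some relatives outside the rule, named after their values were seen, also differed between the arrays, and others did not. For *MMP25-AS1*, 1 probe read 669 in mock and 580 after *miR-139-3p*, at 0.00. Another read 28.8 and 64.1, at 1.36. The pseudogene *ADAM20P1* was not well above background in mock or after *miR-139-5p*, at 2.19 and 2.36, and read 60.5 after *miR-139-3p*, a bound of 3.86 on the log2 scale. *ADAM20*, its coding relative, was well above background on the same array only, at 23.7. One of 2 probes of *ADAMTS7P1* was higher by 2.30 with *miR-139-3p*, against -0.41 for *miR-139-5p*, and the other was not well above background on any array. *MMP23B*, a membrane-bound MMP whose name carries a letter, read 9.7 in mock, 6.7 after *miR-139-5p* and 20.9 after *miR-139-3p*, at 1.31 with *miR-139-3p*. *ADAMTS9-AS1*, the antisense RNA beside *ADAMTS9*, read 9.0, 6.6 and 13.9 on 1 of its 4 probes, at 0.84 with *miR-139-3p*, where *ADAMTS9* itself was at -1.98. The other 3 probes of the antisense RNA were not well above background on any array.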
